A study of Mus musculus with 10 samples.

Results

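Chemokines are small secreted proteins that direct the migration of leukocytes, and their receptors are seven-transmembrane proteins on the cells that respond. The members of the family described here were all genes of the deposited table whose symbol is Ccl or Cxcl, or Ccr, Cxcr or Ackr, followed by a number and, for the ligands, at most 1 letter. This rule used names only and no measured value. It found 55 of the 18994 genes listed: 35 ligands (23 CC and 12 CXC) and 20 receptors (10 Ccr, 6 Cxcr and 4 Ackr). Expression was measured by mRNA sequencing of the right cheek of C57BL/6 mice aged 6 to 8 weeks, shaved 3 days earlier. A volume of 5 µL was injected into the skin, holding in 5 mice 1 µg of MMP9, a gelatinase of the matrix metalloproteinase family, and in the other 5 mice vehicle alone. Tissue was taken 4 hours after the injection. The 2 groups shared strain, age range, shaving, injection and time, and differed in MMP9 alone, as far as the labels go. Each library came from 1 mouse, numbered within its group, and the sources used here do not give the sex of the mice or what the vehicle held.

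Chemokines are divided by the spacing of their first cysteines into CC (Ccl) and CXC (Cxcl) ligands, which act through Ccr and Cxcr receptors coupled to inhibitory G proteins. A small set of atypical receptors (Ackr) binds chemokines without classical G protein signalling and scavenges or transports them. In skin, some ligands are made at steady state by keratinocytes, fibroblasts, lymphatic vessels and resident macrophages and guide homing, while others are induced within hours of injury or infection and recruit neutrophils, monocytes and T cells. Proteases, MMP9 among them, can also cut chemokine proteins, which RNA levels do not record.

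The libraries held 17121541 to 19443099 estimated counts each. Where mice are compared, levels are CPM, counts scaled to library size with edgeR's TMM factors. Where genes are compared, they are the deposited TPM, which also account for transcript length. Skin was present in all libraries: summed keratinocyte markers (Krt5, Krt14, Krt1 and Krt10) stood at 6537 to 13520 CPM in vehicle and 6965 to 10940 CPM in MMP9. Skeletal muscle markers (Acta1, Ckm and Myh4) were abundant too, at 8151 to 16160 CPM over the 10 libraries. Some libraries stood apart. Ribosomal protein genes took 24.4% of the TPM in MMP9 mouse 4, against 15.6% to 17.1% in the other 9 libraries, and hair follicle keratins were near 0 in vehicle mouse 2 (2.13 CPM) and MMP9 mouse 1 (3.11 CPM), against 211 to 3659 CPM elsewhere. With the last 2 mice left out, 0 members passed the test and the median log2 fold change of the tested members was 0.14.

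Stretches of promoter are shown first for the neutrophil-attracting ligands Cxcl1, Cxcl2 and Cxcl3, and for Cxcl10, the interferon-inducible member with an unadjusted p under 0.05. Over the mice, Cxcl2 with Cxcl3 passed by Pearson's r and Cxcl1 passed with neither. By Spearman's rho none of these pairs passed. The stretches are the bases just before the RefSeq transcription start on build GRCm38.p6, written 5′ to 3′ on the strand of the gene. The first 3 are on the + strand and Cxcl10 is on the - strand. They lie at chr5:90891135-90891244, chr5:90903789-90903898, chr5:90785991-90786100 and chr5:92348890-92349109. Capitals mark letters that match the NF-kB-type pattern GGGNNNTTCC or the interferon-response-type pattern GAAANNGAAA (N is any base), searched on both strands.
Cxcl1: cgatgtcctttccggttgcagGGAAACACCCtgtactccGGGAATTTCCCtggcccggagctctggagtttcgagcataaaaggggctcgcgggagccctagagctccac
Cxcl2: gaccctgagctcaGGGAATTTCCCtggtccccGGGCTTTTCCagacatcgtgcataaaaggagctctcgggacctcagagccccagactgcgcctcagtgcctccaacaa
Cxcl3: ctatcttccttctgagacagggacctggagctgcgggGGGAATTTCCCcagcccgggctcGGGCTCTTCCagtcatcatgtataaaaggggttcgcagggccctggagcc
Cxcl10: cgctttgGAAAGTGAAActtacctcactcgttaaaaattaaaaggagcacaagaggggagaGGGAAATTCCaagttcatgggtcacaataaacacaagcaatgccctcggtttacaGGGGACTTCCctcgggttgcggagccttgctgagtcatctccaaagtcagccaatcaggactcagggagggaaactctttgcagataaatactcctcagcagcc
Cxcl1, Cxcl2 and Cxcl3 each held the run GGGAATTTCCC, starting 71, 97 and 73 bases before the start, in which matches on the 2 strands overlap by all but 1 base. Cxcl10 held the interferon-response-type match GAAAGTGAAA, 213 bases before its start, and NF-kB-type matches beginning 159 and 104 bases before it. Of all 32851 promoter windows of 300 bases in the RefSeq table, 5.56% held the NF-kB-type pattern and 3.44% the interferon-response-type pattern. For the members, 41 of 55 had an entry, with 48 windows, of which 9 (18.8%) and 3 held the respective patterns. The 3 were those of Cxcl10, the lymphoid ligand Ccl19 and the constitutive ligand Cxcl14. Cxcl9, the other tested interferon-inducible member, held neither pattern. A match is a description of letters and shows no binding.

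The most abundant members included ligands that skin is known to make at steady state, though no skin without an injection was measured. Ccl27a, a keratinocyte ligand for Ccr10 on skin-homing T cells, led at 584 ± 123 TPM (SD, n = 5) in vehicle and 650 ± 87.7 TPM in MMP9. Ccl21a, which lymphatic vessels display to draw Ccr7-bearing dendritic cells and T cells, followed at 447 ± 114 and 538 ± 73.9 TPM. Next in the vehicle group came Cxcl14, a constitutive epithelial chemokine, at 257 ± 84.4 TPM, Ccl27b at 241 ± 83.1 TPM and Ccl8, a ligand of monocytes and T cells made by skin macrophages, at 237 ± 96.0 TPM. In all, 12 members averaged at least 100 TPM in vehicle, 32 at least 10 TPM and 45 at least 1 TPM. The 12 included the inducible ligands Ccl7 at 154 TPM, Cxcl10 at 151 TPM and Ccl2 at 127 TPM. Neighbours in this order could seldom be told apart: in 53 of 54 neighbouring pairs the vehicle ranges overlapped, the exception being Ackr4 above Cxcl16. Ccl21c and Ccl21d had identical counts in every library. They, Ccl21a and the pair Ccl27a and Ccl27b are near-identical copies, so how reads were split among them is uncertain.

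**Figure D1:**
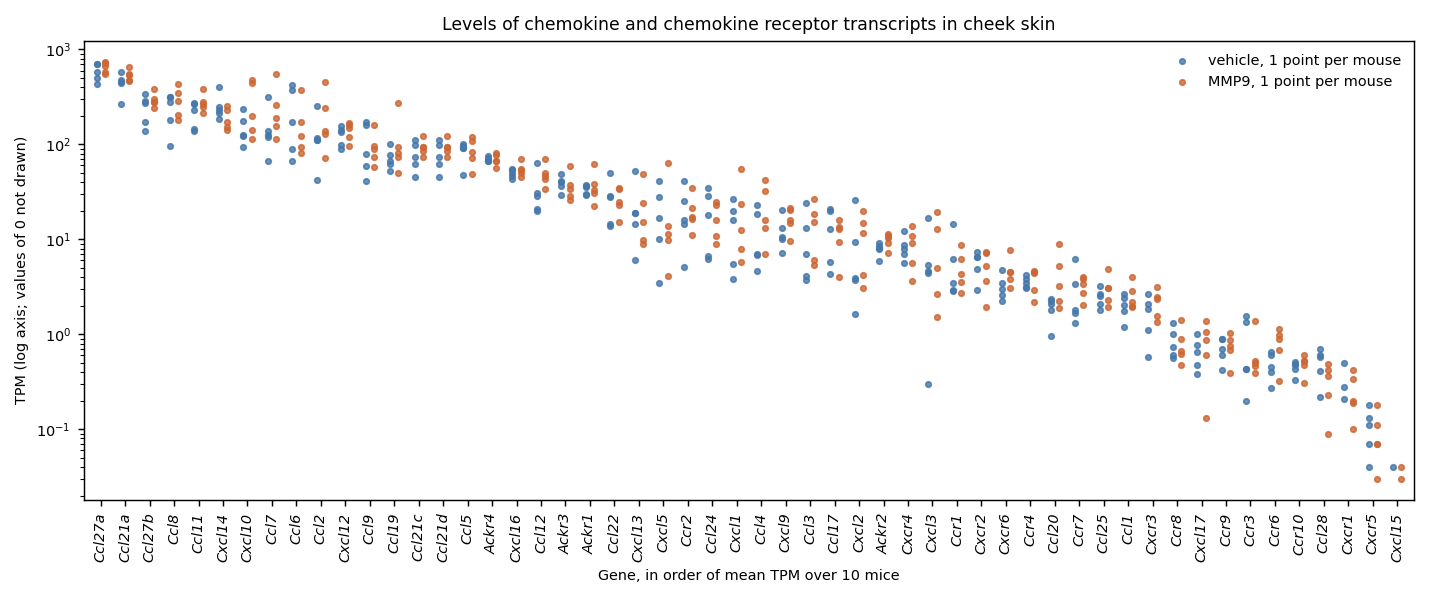
Level of the chemokine ligands and receptors in each mouse (54 of the 55 members drawn), in TPM on a log axis, ordered by mean level, with vehicle and MMP9 mice as separate points. Ccl27a and Ccl21a lead in both groups, and the points of the 2 groups are intermingled for nearly all members.

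Ligands outweighed receptors. Summed over the 35 ligands, the level was 3429 ± 674 TPM (SD, n = 5) in vehicle and 4072 ± 552 TPM in MMP9, and summed over the 20 receptors 219 ± 40.8 and 224 ± 45.1 TPM. The leading 6 members held 41.7% to 62.1% of the summed TPM of the family in a library. Among receptors the scavenging receptor Ackr4 stood highest. Filtering on low counts left out 6 members, which were therefore not tested: Ccr10, the receptor of Ccl27a, with 89 counts over the 10 libraries, Ccr8 with 104, Cxcl17 with 60, Cxcr5 with 28, Cxcr1 with 27 and Cxcl15 with 3. Ccr10 lay between 0.340 and 0.570 CPM in every mouse, although its ligand was the most abundant member.

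The comparison of MMP9 with vehicle found no member that passed. With edgeR's quasi-likelihood test and Benjamini-Hochberg adjustment over all 15250 genes tested, 0 of the 49 tested members passed at 0.05, 0 higher and 0 lower, and the lowest adjusted p was 0.981. Among all genes tested the share that passed was 0%. DESeq2 and limma-voom also called 0 members, and over all genes DESeq2 called 1 and limma-voom 0. At an unadjusted p under 0.05 edgeR had 5 members (10.2% of 49), against 3.19% of all genes. DESeq2, run without the filter, had 6 of 55 (10.9%), against 3.27% of all genes, limma-voom had 4 of 49 (8.16%), against 3.03%, and limma on log2(TPM + 1) had 2 of 49 (4.08%), against 1.58%. All 5 members at that level in edgeR's test were higher in MMP9, where 2.07% of all genes met that rule. The log2 fold change was above 0 for 37 of 49 members (75.5%), against 53.7% of all genes, and below 0 for 12. Its median was 0.25 over the members and 0.013 over all genes. The 2 groups did not overlap for 1 member that was higher in MMP9 (2.04%, against 0.426% of all genes) and for 0 that were lower (against 0.138%). The 95% interval lay within 1 log2 unit of 0 for 21 of 49 members (42.9%), against 90.2% of all genes. Members share cells, pathways and libraries, and their counts are not independent observations.

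**Figure D2:**
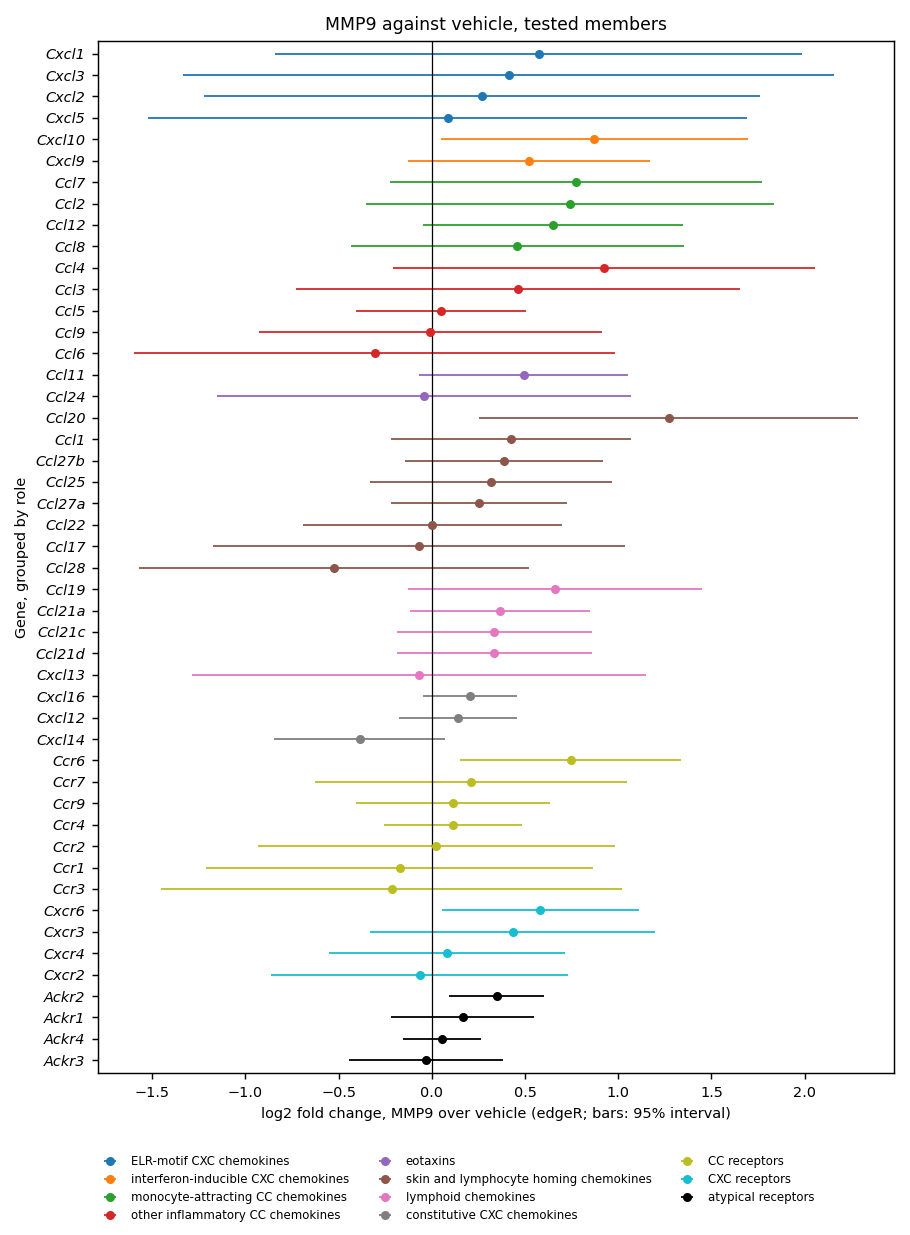
Log2 fold change (MMP9 over vehicle) of the tested members (48 of 49 drawn) with the 95% interval from edgeR, grouped by role, with a line at 0. Most points lie above 0 and nearly all intervals cross it; those of Ackr2, Ccr6, Ccl20, Cxcr6 and Cxcl10 do not, at an unadjusted level.

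Among the ELR-motif CXC ligands, which attract neutrophils through Cxcr2, 4 of 5 were tested, all 4 had a log2 fold change above 0, with a median of 0.34, and 0 passed. Cxcl5, which had the highest TPM of the group, stood at 27.9, 3.33, 16.4, 10.02 and 39.2 CPM in vehicle mice 1 to 5 and 10.4, 3.79, 58.6, 20.4 and 9.56 CPM in MMP9 mice 1 to 5. It spanned more than an order of magnitude within each group and its ranges overlapped almost entirely. For Cxcl5 the log2 fold change of 0.085 (SE 0.73, 95% interval -1.52 to 1.69) turned sign under several alternatives, with values from -0.82 to 0.51 when single mice were left out. Cxcl1, Cxcl2 and Cxcl3, the keratinocyte- and macrophage-derived neutrophil attractants whose promoters are shown above, had log2 fold changes of 0.57 (SE 0.64), 0.27 (SE 0.68) and 0.41 (SE 0.79). Vehicle mouse 2 was the lowest of all mice for Cxcl1, Cxcl2, Cxcl3 and Cxcl5. Beside these values, the summed neutrophil markers were highest in that same mouse at 183 CPM, against 22.8 to 104 CPM in the other 9. Most of that sum came from S100a8 and S100a9, at 70.0 and 96.2 CPM, which keratinocytes can also make. Csf3r, the receptor for the neutrophil growth factor, was in the middle of its range there at 16.1 CPM, and Retnlg was the lowest of all mice at 0.109 CPM. The neutrophil granule and surface genes Ltf and Ly6g had at most 3 counts in every library, and 2 of the 4 tested neutrophil markers had a log2 fold change above 0. The part of neutrophils in these levels was not tested, and in a bulk sample fewer cells of a type and less RNA per cell cannot be told apart.

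Both tested interferon-inducible CXC ligands, which attract activated T cells through Cxcr3, had a log2 fold change above 0, with a median of 0.70, and 0 passed. Cxcl10 stood at 82.2, 58.9, 151, 79.5 and 109 CPM in vehicle mice 1 to 5 and 263, 69.0, 284, 136 and 127 CPM in MMP9 mice 1 to 5. MMP9 mice 1 and 3 were above every vehicle mouse, while MMP9 mouse 2 lay below 4 of the 5 vehicle mice. For Cxcl10 the log2 fold change of 0.87 (SE 0.38, 95% interval 0.047 to 1.70) had an unadjusted p of 0.0401 in edgeR's quasi-likelihood test and an adjusted p of 0.981. Without MMP9 mouse 3 the value was 0.62. Cxcl9 stood at 18.8, 22.4, 17.6, 12.6 and 34.5 CPM in vehicle mice 1 to 5 and 33.0, 24.7, 15.7, 41.6 and 37.2 CPM in MMP9 mice 1 to 5. MMP9 mice 4 and 5 exceeded all vehicle mice in CPM, and mice 1 and 5 did in TPM. MMP9 mouse 3, the highest mouse for Cxcl10, lay below 4 of the vehicle mice for Cxcl9, while MMP9 mouse 1 was high for both. For Cxcl9 the log2 fold change of 0.52 (SE 0.30, 95% interval -0.13 to 1.17) did not pass. Their receptor Cxcr3 averaged 1.56 ± 0.752 CPM (SD, n = 5) in vehicle mice and 2.12 ± 0.518 CPM in MMP9 mice.

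The 4 monocyte-attracting CC ligands, of which Ccl2, Ccl7 and Ccl12 act through Ccr2, all had a log2 fold change above 0, with a median of 0.70, and 0 passed. Ccl8, with the highest TPM of them, stood at 79.9, 49.7, 27.2, 90.2 and 85.1 CPM in vehicle mice 1 to 5 and 46.8, 75.3, 54.5, 184 and 96.7 CPM in MMP9 mice 1 to 5. MMP9 mice 4 and 5 were above all vehicle mice, mouse 4 by far, and MMP9 mouse 1 was below 4 of the vehicle mice. For Ccl8 the log2 fold change of 0.46 (SE 0.41, 95% interval -0.43 to 1.35) became 0.035 without MMP9 mouse 4. Ccl12, a mouse monocyte attractant, stood at 9.25, 6.06, 5.93, 8.53 and 18.4 CPM in vehicle mice 1 to 5 and 13.7, 9.60, 19.5, 19.3 and 13.7 CPM in MMP9 mice 1 to 5. All 5 MMP9 mice were above the 4 lower vehicle mice, and vehicle mouse 5, at 18.4 CPM, lay within the upper part of the MMP9 range. For Ccl12 the log2 fold change of 0.65 (SE 0.32, 95% interval -0.046 to 1.35) became 1.02 without that mouse. Ccl2 and Ccl7, inducible ligands of Ccr2, stood at a highest value of 194 and 234 CPM, both in MMP9 mouse 3, and a lowest of 19.2 and 30.0 CPM, both in vehicle mouse 2. Their log2 fold changes were 0.74 (SE 0.50) and 0.77 (SE 0.45). Summed monocyte markers (Ly6c2, Plac8 and Chil3) were 35.1 to 84.1 CPM in vehicle and 41.5 to 111 CPM in MMP9. Their part in these values was not tested.

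Of the 5 other inflammatory CC ligands, 3 were above and 2 below 0, with a median of 0.051, and 0 passed. Ccl6, a ligand made by macrophages and other myeloid cells, had the highest TPM, at 146, 75.0, 56.2, 322 and 347 CPM in vehicle mice 1 to 5 and 62.6, 97.1, 74.9, 216 and 314 CPM in MMP9 mice 1 to 5. The highest mice were vehicle mice 4 and 5 and MMP9 mice 4 and 5, so the groups covered the same range. For Ccl6 the log2 fold change of -0.31 (SE 0.59, 95% interval -1.60 to 0.98) was negative but turned to 0.031 without vehicle mouse 5. Ccl4, a macrophage inflammatory protein, stood at 2.72, 1.80, 6.86, 2.59 and 8.62 CPM in vehicle mice 1 to 5 and 11.3, 2.53, 15.1, 7.76 and 6.23 CPM in MMP9 mice 1 to 5. MMP9 mice 1 and 3 were above every vehicle mouse, and MMP9 mouse 2 was among the lowest of all mice. For Ccl4 the log2 fold change of 0.92 (SE 0.52, 95% interval -0.21 to 2.06) became 0.61 without MMP9 mouse 3. Ccl3, another macrophage inflammatory protein, Ccl5, which attracts T cells, and Ccl9, a myeloid ligand like Ccl6, had log2 fold changes of 0.46 (SE 0.54), 0.051 (SE 0.21) and -0.0077 (SE 0.42). Summed macrophage markers were 490, 510, 208, 952 and 1104 CPM in vehicle mice 1 to 5 and 477, 618, 408, 509 and 960 CPM in MMP9 mice 1 to 5. Vehicle mice 4 and 5 and MMP9 mouse 5 were high for both these markers and Ccl6. MMP9 mouse 4 was high for Ccl6, at 216 CPM, but not for the markers, at 509 CPM. In MMP9 mouse 2 the markers stood at 618 CPM and Ccl6 at 97.1 CPM. Only 1 of the 7 macrophage markers had a log2 fold change above 0, and their part in the levels of these ligands was not tested.

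The eotaxins attract eosinophils through Ccr3, and 2 were tested, 1 above and 1 below 0. Ccl11, made by dermal fibroblasts, stood at 144, 89.5, 86.8, 174 and 159 CPM in vehicle mice 1 to 5 and 123, 146, 222, 264 and 165 CPM in MMP9 mice 1 to 5. MMP9 mice 3 and 4 exceeded all vehicle mice, and vehicle mice 2 and 3 lay below all MMP9 mice. For Ccl11 the log2 fold change of 0.49 (SE 0.26, 95% interval -0.069 to 1.05) did not pass. Ccl24, the macrophage eotaxin, had a log2 fold change of -0.043 (SE 0.50). Eosinophil markers in the table (Prg2 and Siglecf) summed to 0.713 to 3.41 CPM in vehicle and 1.20 to 4.97 CPM in MMP9, of which 1 passed the filter on low counts.

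Of the 8 skin and lymphocyte homing ligands, 6 were above and 2 below 0, with a median of 0.29, and 0 passed. Ccl27a stood at 162, 113, 159, 134 and 94.7 CPM in vehicle mice 1 to 5 and 154, 142, 123, 246 and 124 CPM in MMP9 mice 1 to 5. In CPM only MMP9 mouse 4 was above 162, and the other 4 MMP9 mice lay within the vehicle range. In TPM that mouse did not stand out, at 721 TPM beside 745 TPM in MMP9 mouse 1 and 706 TPM in vehicle mouse 1. For Ccl27a the log2 fold change of 0.25 (SE 0.21, 95% interval -0.22 to 0.73) became 0.034 without MMP9 mouse 4. Ccl20, an epithelial ligand that draws Ccr6-bearing dendritic cells and T cells, had the largest positive log2 fold change of the tested members, on 267 counts in all. It stood at 0.965, 0.437, 0.823, 1.10 and 1.00 CPM in vehicle mice 1 to 5 and 3.73, 0.809, 1.40, 3.60 and 1.04 CPM in MMP9 mice 1 to 5. In CPM MMP9 mice 1 and 4 were more than 3 times any vehicle mouse, MMP9 mouse 3 was slightly above the vehicle mice, and MMP9 mice 2 and 5 were within the vehicle range. In TPM MMP9 mouse 4 stood at 5.25, against at most 2.37 in vehicle. For Ccl20 the log2 fold change of 1.27 (SE 0.46, 95% interval 0.26 to 2.29) had an unadjusted p of 0.0187 in edgeR's quasi-likelihood test and an adjusted p of 0.981, and the value was 0.95 without MMP9 mouse 1 and 1.00 without MMP9 mouse 4. On the log2(TPM + 1) scale, which understates changes of low genes, the difference was 0.74. Ccl17 and Ccl22, ligands of Ccr4 made by dendritic cells, had log2 fold changes of -0.071 (SE 0.50) and 0.0017 (SE 0.32), and Ccl28, a mucosal and skin ligand of Ccr10, had the most negative of the tested members at -0.52 (SE 0.48). Ccl27b, the copy of Ccl27a, Ccl1, a ligand of Ccr8, and Ccl25, the ligand of Ccr9, had log2 fold changes of 0.39 (SE 0.24), 0.43 (SE 0.29) and 0.32 (SE 0.29).

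Among the lymphoid ligands, which organise the traffic of T and B cells through Ccr7 and Cxcr5, 4 of 5 were above 0, with a median of 0.34, and 0 passed. Ccl21a stood at 229.6, 237, 133, 224 and 283 CPM in vehicle mice 1 to 5 and 218, 306, 219, 406 and 277 CPM in MMP9 mice 1 to 5. MMP9 mice 2 and 4 exceeded every vehicle mouse in CPM, and mouse 2 alone did in TPM. Vehicle mouse 3 was the lowest, and the rest overlapped. For Ccl21a the log2 fold change of 0.37 (SE 0.22, 95% interval -0.11 to 0.85) did not pass. Ccl19, the other ligand of Ccr7, stood at 41.6, 21.4, 27.1, 25.5 and 30.5 CPM in vehicle mice 1 to 5 and 34.9, 31.1, 104, 30.8 and 29.8 CPM in MMP9 mice 1 to 5. A single mouse, MMP9 mouse 3, was more than 2 times any other. For Ccl19 the log2 fold change of 0.66 (SE 0.36, 95% interval -0.13 to 1.45) became 0.11 without it. Cxcl13, the B cell attractant, varied from 4.06 to 36.3 CPM in vehicle and from 6.11 to 30.9 CPM in MMP9, with a log2 fold change of -0.069 (SE 0.55). Ccl21c and Ccl21d shared a log2 fold change of 0.34 (SE 0.24), since their counts are the same.

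Of the constitutive CXC ligands, 2 of 3 tested were above 0 and 0 passed. Cxcl14 had a lower mean in MMP9 than in vehicle, standing at 273, 200.2, 435, 238 and 244 CPM in vehicle mice 1 to 5 and 229, 178, 258, 232 and 167 CPM in MMP9 mice 1 to 5. Vehicle mouse 3 was far above the others, and MMP9 mice 2 and 5 lay below all vehicle mice, as MMP9 mouse 4 also did in TPM. For Cxcl14 the log2 fold change of -0.39 (SE 0.21, 95% interval -0.84 to 0.072) became -0.17 without vehicle mouse 3. Cxcl16, a membrane-bound ligand of Cxcr6, varied little within groups, standing at 44.6, 46.8, 40.5, 38.5 and 46.8 CPM in vehicle mice 1 to 5 and 56.6, 41.6, 44.2, 60.1 and 47.9 CPM in MMP9 mice 1 to 5. MMP9 mice 1, 4 and 5 were above all vehicle mice in CPM, but in TPM only mouse 1 was, and MMP9 mouse 4, at 45.7 TPM, was below 4 of the vehicle mice. For Cxcl16 the log2 fold change of 0.21 (SE 0.11, 95% interval -0.047 to 0.46) did not pass. Cxcl12, the ligand of Cxcr4 made by stromal cells, had a log2 fold change of 0.14 (SE 0.14).

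Over the conventional receptors, 5 of 8 tested CC receptors and 3 of 4 tested CXC receptors had a log2 fold change above 0, with medians of 0.070 and 0.26, and 0 passed. Ccr2, the monocyte receptor for Ccl2, Ccl7 and Ccl12, had the highest TPM of the CC receptors and stood at 32.2, 34.3, 11.2, 55.8 and 86.5 CPM in vehicle mice 1 to 5 and 33.2, 35.1, 44.0, 36.8 and 74.8 CPM in MMP9 mice 1 to 5. Its highest and lowest mice were both in the vehicle group. For Ccr2 the log2 fold change of 0.024 (SE 0.44, 95% interval -0.93 to 0.98) ranged from -0.24 to 0.42 when single mice were left out. Ccr6, the receptor of Ccl20, stood at 0.908, 0.546, 0.768, 0.826 and 0.651 CPM in vehicle mice 1 to 5 and 0.829, 1.62, 1.70, 0.832 and 1.20 CPM in MMP9 mice 1 to 5. MMP9 mice 2, 3 and 5 were above all vehicle mice, and MMP9 mice 1 and 4, in which Ccl20 was highest, were within the vehicle range, though in TPM mouse 1, at 0.68, was just above it. With 184 counts over the 10 libraries, its log2 fold change of 0.75 (SE 0.27, 95% interval 0.15 to 1.34) had an unadjusted p of 0.0181 in edgeR's quasi-likelihood test and an adjusted p of 0.981. On the log2(TPM + 1) scale the difference was 0.28. Ccr1, a receptor of macrophages and other myeloid cells, had a log2 fold change of -0.17 (SE 0.47), and the eosinophil receptor Ccr3 one of -0.22 (SE 0.56). Above 0 were Ccr4 of skin-homing T cells at 0.11 (SE 0.17), Ccr7, which guides cells to lymph nodes, at 0.21 (SE 0.38), and the gut-homing receptor Ccr9 at 0.12 (SE 0.24).

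Cxcr6, the receptor of Cxcl16 on resident and activated T cells, stood at 2.95, 5.30, 2.52, 3.41 and 3.81 CPM in vehicle mice 1 to 5 and 4.66, 4.04, 8.09, 5.13 and 5.03 CPM in MMP9 mice 1 to 5. In CPM MMP9 mouse 3 was the highest, the 4 lower vehicle mice lay below all MMP9 mice, and vehicle mouse 2 lay above 4 of them. In TPM MMP9 mouse 4, at 3.05, lay below vehicle mouse 5, at 3.50. For Cxcr6 the log2 fold change of 0.58 (SE 0.24, 95% interval 0.054 to 1.11) had an unadjusted p of 0.0336 in edgeR's quasi-likelihood test and an adjusted p of 0.981, and the value was 0.38 without MMP9 mouse 3. Cxcr4, the receptor of Cxcl12, had the highest TPM of the CXC receptors and stood at 6.01, 9.06, 7.24, 8.37 and 12.7 CPM in vehicle mice 1 to 5 and 8.96, 10.7, 5.60, 5.82 and 14.9 CPM in MMP9 mice 1 to 5. The ranges overlapped throughout, and its log2 fold change of 0.081 (SE 0.29, 95% interval -0.55 to 0.71) turned sign under several alternatives. The neutrophil receptor Cxcr2 had a log2 fold change of -0.065 (SE 0.36) and Cxcr3 one of 0.43 (SE 0.35). Beside the T cell receptors of this group, summed T cell markers were 49.4 to 53.6 CPM in vehicle and 57.7 to 80.2 CPM in MMP9, without overlap, and in TPM 63.6 to 68.2 and 73.5 to 87.7. Singly, Cd3g (17.8 to 23.3 CPM in vehicle, 23.7 to 40.5 CPM in MMP9) and Cd247 (13.15 to 16.7 and 17.8 to 23.9 CPM) did not overlap. Cd3e, Cd3d, Cd8a and Cd4 did overlap, and Cd3e was lowest of all mice in MMP9 mouse 4, at 5.68 CPM. Among all genes tested, 0.426% were higher in MMP9 without overlap. Of the 7 markers 6 were in the table, all 6 had a log2 fold change above 0, with a median of 0.35, and 0 passed. Summed dendritic and Langerhans cell markers were 54.3 to 98.7 CPM in vehicle and 83.8 to 116 CPM in MMP9. The part of these cells in the levels of Ccr6, Cxcr6 and Ccl20 was not tested.

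Of the 4 atypical receptors, 3 were above 0, with a median of 0.11, and 0 passed. Ackr2, which scavenges inflammatory CC chemokines on lymphatic vessels, was the single member whose groups did not overlap in CPM, standing at 13.7, 14.2, 10.04, 13.5 and 15.2 CPM in vehicle mice 1 to 5 and 16.9, 16.5, 17.9, 17.9 and 15.5 CPM in MMP9 mice 1 to 5. The lowest MMP9 mouse, at 15.5 CPM, was just above the highest vehicle mouse, at 15.2 CPM, and vehicle mouse 3 was the lowest. Its mean was 13.3 ± 1.95 CPM (SD, n = 5) in vehicle mice and 16.98 ± 1.02 CPM in MMP9 mice. For Ackr2 the log2 fold change of 0.35 (SE 0.12, 95% interval 0.094 to 0.60) had an unadjusted p of 0.0117, the smallest of the family, in edgeR's quasi-likelihood test and an adjusted p of 0.981. In TPM the groups did overlap, since MMP9 mouse 4, the library with the high ribosomal protein share, stood at 7.20 TPM within the vehicle range of 5.98 to 9.11 TPM. Lymphatic endothelium markers (Lyve1, Prox1 and Flt4) summed to 54.1 to 122 CPM in vehicle and 68.6 to 96.2 CPM in MMP9, and 1 of the 3 was above 0. Ackr4, which scavenges Ccl19 and Ccl21, stood at 96.5, 89.0, 87.2, 84.9 and 81.7 CPM in vehicle mice 1 to 5 and 91.2, 96.0, 79.0, 106 and 83.5 CPM in MMP9 mice 1 to 5. It varied least of the tested members, and its log2 fold change of 0.053 (SE 0.10, 95% interval -0.16 to 0.26) bounded any difference closely. Ackr3, a scavenger of Cxcl12, and Ackr1, a venular chemokine transporter, had log2 fold changes of -0.030 (SE 0.19) and 0.17 (SE 0.17).

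**Figure D3:**
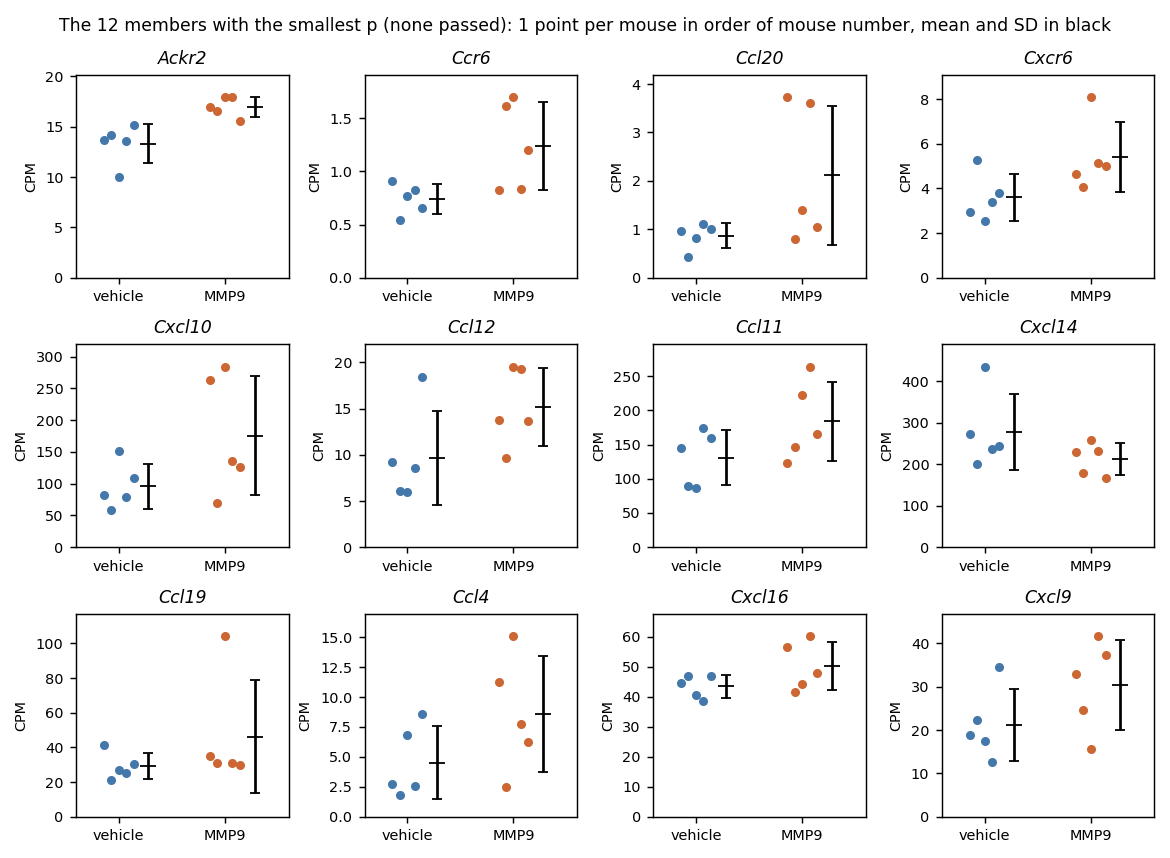
CPM in each mouse of the 12 tested members with the smallest unadjusted p, 1 panel per gene with an axis from 0, with bars for the group means and SD. Ackr2 alone shows no overlap of the groups, and in Ccl19 a single MMP9 mouse, at 104 CPM, stands above the rest.

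Differences between mice of the same group were larger for this family than for most genes. The SD of log2 CPM within groups had a median of 0.54 over the tested members and 0.23 over all genes tested. It was at least 1 for 5 members (10.2%), against 1.74% of all genes, and under 0.2 for Ackr4, Ackr2 and Cxcl16. The highest was 1.37 for Cxcl5 and the lowest 0.13 for Ackr4. Of the 48 members with counts of their own, 14 were highest in MMP9 mouse 4, 12 in MMP9 mouse 3 and 9 in vehicle mouse 5, while 18 were lowest in vehicle mouse 3 and 16 in vehicle mouse 2. These counts are in CPM, and the place of MMP9 mouse 4, the library with the high ribosomal protein share, turned with the scale: in TPM 1 member was highest there and 8 were lowest. In TPM 15 members were highest in MMP9 mouse 3 and 11 in vehicle mouse 5, and 17 and 15 were lowest in vehicle mice 3 and 2. Removing vehicle mouse 5 raised the median log2 fold change of the members to 0.42, and removing vehicle mouse 3 lowered it to 0.19, with 0 members passing in each case.

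**Figure D4:**
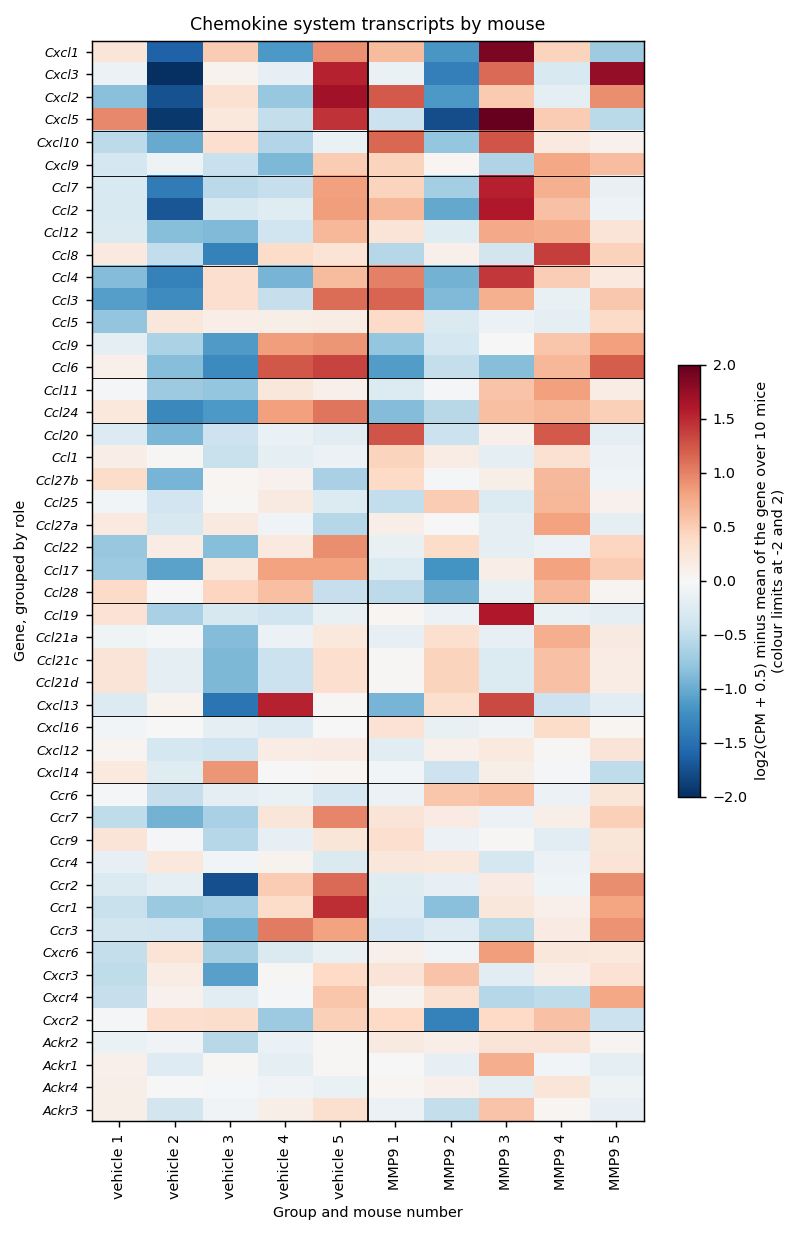
Heat map of log2(CPM + 0.5) minus the mean of the gene over the 10 mice, for the tested members (rows, grouped by role, 48 of 49 drawn) in each of the 10 mice (columns). Vehicle mice 2 and 3 hold most of the low values, and vehicle mouse 5 and MMP9 mice 3 and 4 most of the high ones on this CPM scale.

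Ligands of the same role were compared across the 10 mice on log2(CPM + 0.5), a step taken after the levels had been seen. Of 61 pairs computed, 50 had a Pearson r above 0, and 10 had a Benjamini-Hochberg adjusted p under 0.05 in a two-sided permutation test with 100000 resamples. All pairs use the same 10 mice and libraries and are not independent of each other. Pairs of other genes were not computed, so whether these counts are particular to ligands of a shared role was not tested. Ccl2 and Ccl7, both monocyte attractants, had r = 0.98 (permutation p = 1e-05, the smallest the resamples can give, adjusted p = 0.00061) and Spearman's rho = 0.976 (permutation p = 5e-05, adjusted p = 0.00305). Without the 2 mice farthest from the median of Ccl2, vehicle mouse 2 and MMP9 mouse 3, r was 0.95, and within vehicle and MMP9 it was 0.976 and 0.982. Ccl6 and Ccl9 had r = 0.95 (permutation p = 0.00017, adjusted p = 0.00259) and rho = 0.927 (permutation p = 0.00031, adjusted p = 0.00946), with 0.919 without 2 mice.

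Other pairs of inflammatory ligands followed. Cxcl1 and Cxcl5 had r = 0.895 (permutation p = 0.00059, adjusted p = 0.0072) and rho = 0.867 (permutation p = 0.00227, adjusted p = 0.0241), with 0.775 without 2 mice. Ccl3 and Ccl4 had r = 0.90 (permutation p = 0.00099, adjusted p = 0.0101) and rho = 0.879 (permutation p = 0.0017, adjusted p = 0.0241), with 0.837 without 2 mice. Cxcl2 and Cxcl3 had r = 0.84 (permutation p = 0.00246, adjusted p = 0.0167), while the adjusted p of their rho of 0.782 was 0.0623 (permutation p = 0.0102), and r was 0.676 without 2 mice. Cxcl1, whose promoter holds the same GGGAATTTCCC run as theirs, did not pass with either: r was 0.675 with Cxcl2 (permutation p = 0.0354, adjusted p = 0.166) and 0.607 with Cxcl3 (permutation p = 0.0627, adjusted p = 0.225). By rho, Cxcl1 with Cxcl2 stood level with Cxcl2 and Cxcl3, at 0.794 (permutation p = 0.00909, adjusted p = 0.0616). Cxcl1 with Cxcl3 had rho = 0.636 (permutation p = 0.0541, adjusted p = 0.24), and none of these pairs passed by rho. Ccl11 and Ccl24, the eotaxins, had r = 0.83 (permutation p = 0.00166, adjusted p = 0.0145) and rho = 0.818 (permutation p = 0.00592, adjusted p = 0.0451), with 0.824 without 2 mice. The remaining 4 of the 10 pairs were Ccl7 with Ccl12, Ccl2 with Ccl12, and the near-identical copies Ccl21a with Ccl21c and Ccl27a with Ccl27b, which may share reads.

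**Figure D5:**
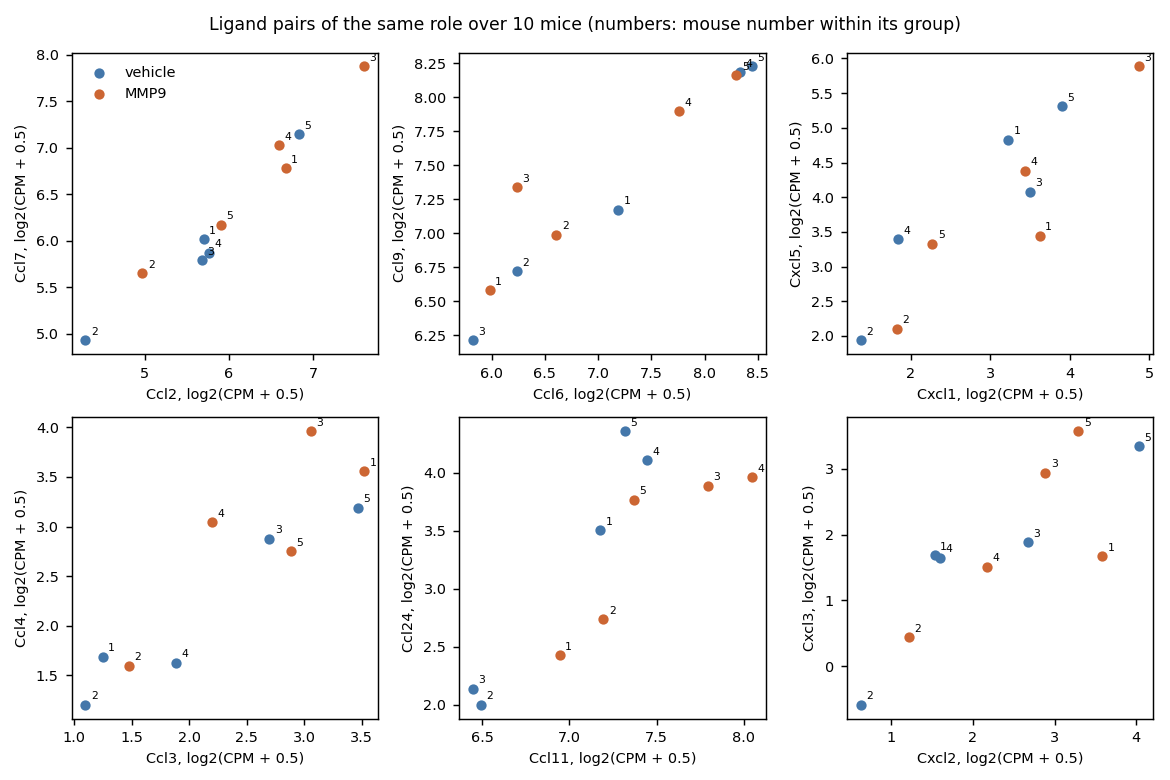
Level of one ligand against another of the same role in each mouse, as log2(CPM + 0.5), for 6 pairs, with mice numbered within their group. In each panel the 2 ligands rise together over the mice of both groups, most closely for Ccl2 and Ccl7 (r = 0.98). MMP9 mice 2 and 5 lie lower in Ccl24 than vehicle mice at like levels of Ccl11, a difference that was not tested. Ccl24 was 10.8 CPM in vehicle mouse 1 and 6.17 CPM in MMP9 mouse 2, at 144 and 146 CPM of Ccl11. It was 20.0 CPM in vehicle mouse 5 and 13.1 CPM in MMP9 mouse 5, at 159 and 165 CPM of Ccl11. MMP9 mice 1, 3 and 4, at 123, 222 and 264 CPM of Ccl11, had no vehicle mouse as close.

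Ligands were also compared with their receptors. Of 22 textbook ligand and receptor pairs, 19 could be computed, 17 had r above 0 and 0 had an adjusted p under 0.05 by Pearson's r or by Spearman's rho. The highest was Cxcl1 with its neutrophil receptor Cxcr2, at r = 0.635 (permutation p = 0.0468, adjusted p = 0.419) and rho = 0.745 (permutation p = 0.0170, adjusted p = 0.303). Without vehicle mouse 2 and MMP9 mouse 3, the mice farthest from the median of Cxcl1, r was 0.940. The difference between the 2 kinds of pair was not tested, and neither kind was compared with pairs of other genes.

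Other genes of the pathway that the name rule does not reach were compared in the same fit. Of 9 chemokine system genes with other names, 9 were tested, 5 were above and 4 below 0, with a median of 0.38, and 0 passed. Rarres2, which encodes chemerin, the attractant of Cmklr1-bearing macrophages and dendritic cells, averaged 133 ± 30.6 CPM (SD, n = 5) in vehicle mice and 200.3 ± 77.9 CPM in MMP9 mice. For Rarres2 the log2 fold change of 0.59 (SE 0.25, 95% interval 0.038 to 1.14) had an unadjusted p of 0.0384 in edgeR's quasi-likelihood test and an adjusted p of 0.981. Xcr1 and its ligand Xcl1, which link cross-presenting dendritic cells with T and natural killer cells, and Cx3cr1, the fractalkine receptor of monocytes and macrophages, had log2 fold changes of 0.59 (SE 0.29), 0.39 (SE 0.20) and 0.60 (SE 0.31). Of 28 genes of the signalling chain from chemokine receptors to movement (G protein subunits, arrestins, receptor kinases, phosphoinositide 3-kinase gamma, Rac and others), 17 were above and 11 below 0, with a median of 0.031, and 0 passed. Rgs1, which damps chemokine receptor signals in lymphocytes, averaged 2.97 ± 1.32 CPM (SD, n = 5) in vehicle mice and 4.83 ± 1.57 CPM in MMP9 mice, a log2 fold change of 0.69 (SE 0.32, 95% interval -0.00093 to 1.39). Rgs2, another regulator of G protein signals, the myeloid kinase Fgr and the phospholipase Plcb3 had log2 fold changes of 0.22 (SE 0.11), 0.32 (SE 0.30) and -0.11 (SE 0.11).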

How the data were processed

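For each of 18994 genes, listed by symbol and Entrez identifier, the authors deposited an estimated read count, an FPKM and a TPM per library, per the file headers. Libraries of oligo(dT)-selected mRNA were sequenced as 50-base single reads (DNBSeq), per the labels' protocols. HISAT and the build GRCm39 are named, per the submitters' processing notes. The sources used here do not give the quantification program, versions, annotation, strand setting or handling of shared reads. Of the deposited estimated counts, 60.8% were not whole, so they were rounded, and edgeR 4.0.16 under R 4.3.3 was applied (TMM factors, filterByExpr by group, quasi-likelihood F test of treatment over all 10 libraries, Benjamini-Hochberg adjustment over 15250 genes). Standard errors come from the F statistic, and intervals are at the 95% level. The FPKM values and group means deposited by the authors entered no result, and the deposited TPM values gave levels between genes. The fit was tested on simulated counts.

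Members are named with values in every mouse where they were among the 12 with the smallest p, had groups that did not overlap, or had the highest mean TPM of their role. Each of the 2 lists outside the name rule named the 4 genes with the smallest p. Other members are given by range, count or fold change. Values of 1 member are not reported here, though it is included in the counts. The members, role lists and marker lists were chosen with earlier results of these data known, and the pairs of ligands within a role and the printed promoters after their values were seen. Correlations used scipy 1.17.1. RefSeq promoters were matched by Entrez identifier. Their build, GRCm38.p6, differs from that of the counts, so no count was placed by coordinate. The alternatives tried were upper-quartile and RLE factors, a minimum mean of 1 CPM or no filter, DESeq2 1.42.0, limma 3.58.1 on voom weights and on log2(TPM + 1) and log2(TPM + 0.1), the mouse number as a block, each mouse left out, and vehicle mouse 2 with MMP9 mouse 1 left out.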

Additional observations from a re-analysis of the deposited data

Results flagged for a closer look

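In 8 of 98 groups of 5 mice (49 tested members, each in vehicle and in MMP9) a single mouse stood far from the other 4. The cut-off marks about 1 in 20 groups by chance where values are normally distributed. Whether these CPM values are so distributed was not tested, and Ccl21c and Ccl21d entered with the same counts. In TPM, 4 of the 8 still stood as far apart: Ccl19, Ccl12, Ccl5 and Cxcl13. Ccl19, the Ccr7 ligand, stood at 104 CPM in MMP9 mouse 3, with the other 4 at 29.8 to 34.9 CPM. The same mouse was the highest of its group for Ackr1, the venular chemokine transporter, at 39.2 CPM against 20.7 to 23.7 CPM, and for Cxcr6, the T cell receptor of Cxcl16, at 8.09 CPM against 4.04 to 5.13 CPM. Ccl27a, the keratinocyte ligand, stood at 246 CPM in MMP9 mouse 4, against 123 to 154 CPM, but at 721 TPM, against 545 to 745 TPM, it did not stand apart in TPM. Ccr2, the monocyte receptor, stood at 74.8 CPM in MMP9 mouse 5, against 33.2 to 44.0 CPM. In the vehicle group, the monocyte attractant Ccl12 stood at 18.4 CPM in mouse 5, against 5.93 to 9.25 CPM, and the B cell attractant Cxcl13 at 36.3 CPM in mouse 4, against 4.06 to 12.8 CPM. The T cell attractant Ccl5 was low in vehicle mouse 1, at 14.1 CPM against 27.0 to 29.0 CPM.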

How the results depend on the processing

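Under all 20 alternatives 0 members were called, the lowest adjusted p of a member being 0.887 (without MMP9 mouse 1). Over all genes the count was 0 in every one except DESeq2, which called 1. The median log2 fold change of the tested members ran from 0.14, with vehicle mouse 2 and MMP9 mouse 1 both left out, to 0.42, without vehicle mouse 5, and single mice left out gave 0.19 to 0.42. With the replicate block it was 0.30, with 0 members called, 7 of 49 at an unadjusted p under 0.05 (14.3%, against 3.63% of all genes) and 40 above 0. The mouse numbers run within each group, and the labels do not say whether mice of the same number were paired. Deviations of same-numbered mice correlated at -0.199 to 0.444, and 2 of 5 vehicle mice matched their own number best. So few values cannot settle whether the numbers pair the mice. Of the 20 named members, 15 kept their sign throughout, and 5 turned sign under at least 1 alternative. Over all 20 members, 20 of 399 values had the opposite sign, all of them in those 5. Of 20 values each, Cxcl5 turned sign in 8, Ccr2 and Cxcr4 in 4 each, Ackr4 in 3 and Ccl6 in 1. Cxcl5 stood at -0.15 on log2(TPM + 0.1), -0.14 on log2(TPM + 1), -0.10 with limma-voom, -0.081 with the replicate block and -0.015 with both mice left out, and at -0.82 to 0.51 with single mice left out. Cxcr4 stood at -0.053 on log2(TPM + 0.1) and -0.036 on log2(TPM + 1), and at -0.16 to 0.25 with single mice left out. Ackr4 stood at -0.014 on both TPM scales, and at -0.010 to 0.097 with single mice left out. The ranges with single mice left out were -0.24 to 0.42 for Ccr2 and -0.75 to 0.031 for Ccl6. The cause was not tested. Depth limits the rare members: Ccl20 and Ccr6 rest on 267 and 184 counts over 10 libraries.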
